A study of Mus musculus with 27 samples.

Results

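The genes described here are 10 Wnt ligands, Wnt2b, Wnt4, Wnt5a, Wnt5b, Wnt6, Wnt9a, Wnt10a, Wnt10b, Wnt11 and Wnt16, out of the 37991 genes quantified in a differentiation course of mouse calvarial osteoblasts. They were taken by symbol from a fixed list, and all 10 were present in every file. The cells came from the skull vaults of neonatal C57BL/6J-Col3.6 CFP mice, 5 to 9 days old. In this strain a fragment of the collagen type I promoter drives cyan fluorescent protein. After 4 days of growth the fluorescent cells were collected by sorting, returned to culture, and kept in ascorbic acid and β-glycerol phosphate, so that every sample shared the strain, the sort and the medium. RNA was profiled on days 2, 4, 6, 8, 10, 12, 14, 16 and 18 of differentiation, with 3 profiles per day. The 3 profiles of a day carried 1 barcode in 3 sequencing lanes and, over genes with whole-number counts and a sum of at least 30, differed by no more than sampling noise (chi-square per degree of freedom of 0.999 to 1.02), so they were summed and counted as 1 library. The paper calls the profiles triplicate samples, but by barcode there was 1 library for each of the 9 days and no biological replicate. A p-value below measures a trend in day against the scatter of the days around it.

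Wnt ligands are secreted, lipid-modified glycoproteins. Porcupine (Porcn) attaches a fatty acid to a conserved serine in the endoplasmic reticulum, Wntless (Wls) carries the ligand to the cell surface, and Frizzled receptors bind the lipid outside. With Lrp5 or Lrp6 as co-receptor some ligands stabilise β-catenin, which favours bone formation, whereas others signal through Ror2 or Ryk without it.

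The stretch of coding sequence around that serine is shown for each ligand because the genes differ there while encoding the same acylation site. Sequences were read 5′ to 3′ on the coding strand from the GENCODE annotation of NCBIM37, and the capitals mark the serine codon.
Wnt5a: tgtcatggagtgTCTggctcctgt
Wnt5b: tgtcacggagtcTCCgggtcctgc
Wnt16: tgccacggagttTCCggctcctgt
Wnt2b: tgtcacggtgtgAGTggctcctgt
Wnt9a: tgccatggtgtgTCTggctcctgc
Wnt10b: tgccatggaacgTCAggcagctgc
Wnt10a: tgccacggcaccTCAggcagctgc
Wnt4: tgtcacggggtgTCGggctcctgc
Wnt11: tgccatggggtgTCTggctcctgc
Wnt6: tgccatgggcttTCGggttcctgc
Each ligand held 1 such site, inside 1 exon. The Wnt5a site lies at chr14:29335701-29335724 (plus strand, exon 5 of 5), the Wnt5b site at chr6:119383818-119383841 (minus strand, exon 5 of 5) and the Wnt16 site at chr6:22247800-22247823 (plus strand, exon 4 of 4). The Wnt2b site lies at chr3:104754138-104754161 (minus strand, exon 4 of 5), the Wnt9a site at chr11:59144428-59144451 (plus strand, exon 4 of 4) and the Wnt10b site at chr15:98603309-98603332 (minus strand, exon 5 of 5). The same base stood at 11 of the 24 positions in all 10 genes. Wnt2b was the 1 gene with an AGT codon, and the other 9 used a codon that begins with TC. Against Wnt5a, 3 bases differed in Wnt9a and in Wnt11, 4 in Wnt2b, Wnt4 and Wnt16, 5 in Wnt5b, 7 in Wnt6 and Wnt10b, and 10 in Wnt10a.

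The summed estimated counts of a day ranged from 22470195 (day 10) to 62009157 (day 12), with a median of 43146793. All 9 osteoblast markers passed the filter on low counts. Of these 6 rose with day and 0 fell, where 28.3% of all tested genes rose and 26.1% fell. Sp7, Alpl and Spp1 were not called along a straight line in day. A curved fit in day (natural spline) called all 9 markers, beside 59.1% of all tested genes. The summed level of the 9 went from 8710 to 13700 CPM (counts per 1000000 counts of the library) over days 2 to 6 to 21800 to 26100 CPM over days 14 to 18. Most of this sum was Col1a1 and Col1a2, at 4960 and 3220 CPM on day 2. Markers of other cells moved over the same days, and their counts stand beside the same shares of all tested genes. The macrophage list went from 19.1 to 42.1 CPM early to 351 to 1360 CPM late (6 of 7 rose), and the adipocyte list from 2.20 to 6.17 CPM to 98.0 to 201 CPM (5 of 5 rose). Osteoclast markers went from 30.9 to 65.9 CPM to 158 to 162 CPM (3 of 4 tested rose, Calcr at 0 counts), and the 2 tested osteocyte markers both rose, the list of 4 going from 0.982 to 1.92 CPM to 73.9 to 150 CPM. Endothelial markers went from 5.30 to 10.2 CPM to 19.3 to 26.7 CPM (2 of 3 tested rose and 1 fell), and mast cell markers from at most 0.0701 CPM to 1.44 to 4.17 CPM (2 of 2 tested rose, Mcpt4 at 0 counts). The chondrocyte list stood at 290 to 393 CPM early and 253 to 334 CPM late, with 2 of 4 rising and 1 falling. The 4 proliferation genes all fell, from 533 to 679 CPM to 151 to 182 CPM. Single genes made up most of some sums, Lyz2 for macrophages, Ctsk for osteoclasts and Phex for osteocytes. Adipoq, Plin1, Cfd, Kit and Cpa3 were at most at 0.0935 CPM over days 2 to 6. They passed the filter through the later days on which they were higher, so the adipocyte and mast cell counts are a description. Bglap, at most at 0.107 CPM over days 2 to 6, and Dmp1, at most at 0.196 CPM, passed in the same way. The osteoblast and osteocyte counts are thus a description too. The part of these shifts in the Wnt results was not tested, and in bulk RNA fewer cells of a type and less RNA per cell cannot be told apart.

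To ask which ligands the cells expressed, levels were compared as CPM, scaled by upper-quartile factors, per kilobase of effective transcript length. Wnt5a, a ligand known mainly for signalling without β-catenin, was the most abundant, at 16.9 ± 2.32 CPM per kilobase (SD over 9 days). Its mean level per kilobase lay at percentile 73.9 of the 15659 genes tested. Wnt16 followed at 2.60 ± 1.83, Wnt9a at 1.72 ± 0.514, Wnt5b at 1.69 ± 0.558 and Wnt2b at 0.823 ± 0.428 CPM per kilobase. The scarcer ligands were Wnt10b at 0.379 ± 0.448, Wnt4 at 0.183 ± 0.103, Wnt11 at 0.164 ± 0.145, Wnt10a at 0.0792 ± 0.0609 and Wnt6 at 0.0436 ± 0.0519 CPM per kilobase. The place of Wnt16 rests on a median effective length of 1207.52 bases, which varied from 18.15 to 1938.89 bases between profiles. Without division by length it averaged 3.14 CPM, against 5.23 CPM for Wnt9a and 3.09 CPM for Wnt5b. Between neighbours in the order per kilobase, only Wnt5a stood above the next gene on 9 of 9 days, with a mean log2 ratio to Wnt16 of 3.25 (SD 1.40 over days). Wnt9a and Wnt5b could not be ordered, since Wnt9a was higher on 3 of 9 days and the mean log2 ratio was 0.05 (SD 0.86). Wnt16 exceeded Wnt9a on 6 of 9 days with a mean log2 ratio of 0.07 (SD 1.93), so this pair could not be ordered either. The same held for Wnt10b and Wnt4 (higher on 5 of 9 days, mean log2 ratio 0.05, SD 2.14). Wnt2b exceeded Wnt10b on 8 of 9 days. The remaining neighbours kept their order on 5 to 7 days. Wnt10a, with 67 counts in all, and Wnt6, with 25, were near the limit of detection.

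**Figure D1:**
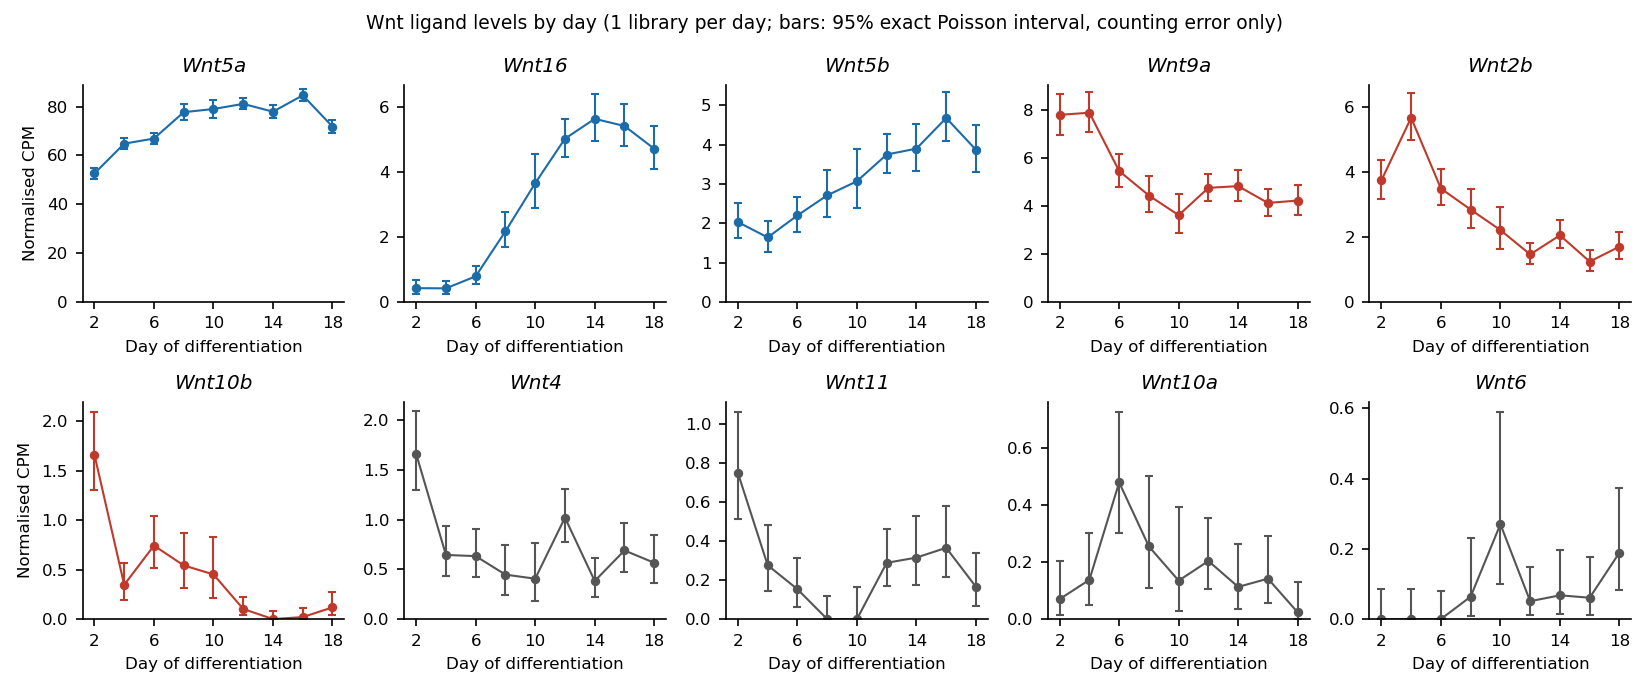
Normalised CPM (vertical axes, each panel with its own scale) of the 10 Wnt ligands against day of differentiation, 1 library per day, with 95% exact Poisson intervals that cover counting error only. Blue marks genes that rose and red genes that fell in the straight-line fit, and grey marks genes not called or not tested. Wnt16 climbs from 0.415 CPM on day 4 to 5.63 on day 14, and Wnt10b drops from 1.66 CPM on day 2 to 0 on day 14.

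How the ligands changed as the cells differentiated was asked next. A straight line in day was fitted to 15659 genes with edgeR's quasi-likelihood test and Benjamini-Hochberg adjustment, and a gene was called at an adjusted p under 0.05. Of the 10 ligands 8 passed the filter on low counts. Wnt5a, Wnt5b and Wnt16 rose, where 28.3% of all tested genes rose. Wnt2b, Wnt9a and Wnt10b fell, where 26.1% of all tested genes fell. Wnt4 and Wnt11 were not called. In either direction 54.3% of all tested genes were called, and a natural spline in day called 59.1% of them and the same 6 ligands. From day 2 to day 18, the median of the fitted log2 changes was -0.86 over the 8 ligands and 0.05 over all tested genes. These counts are a description, since Wnt10b and Wnt11 passed the filter through the days on which they were higher.

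**Figure D2:**
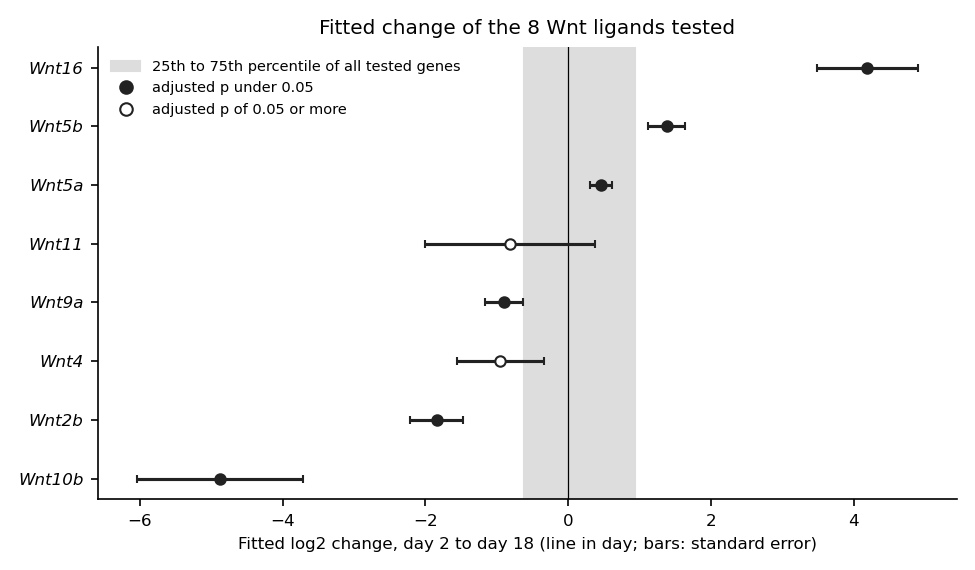
Fitted log2 change from day 2 to day 18 (horizontal axis, straight line in day) with its standard error for the 8 ligands tested, over the range from percentile 25 (-0.62) to percentile 75 (0.93) of all tested genes in grey. Filled points had an adjusted p under 0.05. Wnt16 (4.19) and Wnt10b (-4.88) lie farthest from 0 on either side.

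Wnt16, whose human counterpart is known from a locus associated with bone mineral density, showed the largest fitted rise of the 8 ligands. On days 2, 4, 6, 8, 10, 12, 14, 16 and 18 it stood at 0.421, 0.415, 0.785, 2.17, 3.65, 5.02, 5.63, 5.41 and 4.71 CPM, from 18, 18, 36, 68, 81, 296, 250, 267 and 200 counts. The 3 early days (2 to 6) lay below every later day, and the 4 days from day 12 on formed a plateau. Along the line its log2 change was 4.19 ± 0.71 (SE), an 18.2-fold rise (edgeR, adjusted p = 0.00074, spline 3.57e-06). Without day 18 the log2 change was 5.02 (edgeR, adjusted p = 0.000315). Between single libraries, day 14 was 13.6 times day 4 (95% interval 8.42 to 23.3, counting error only), and these are the highest and lowest days. The steepest step between adjacent days was from day 6 to day 8, at 2.76-fold (95% interval 1.82 to 4.26), whereas from day 12 on each step's interval included 1. The gene spans chr6:22238227-22250409 on the plus strand, with Fam3c 6110 bases away.

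The call for Wnt16 depended on the unit. In TPM as deposited, tested by limma on log2(TPM + 0.1), its change was 1.99 ± 1.58 with an adjusted p of 0.32, so that the call was lost. In the 4 profiles in which RSEM's effective length was under 500 bases the TPM was 25.18 to 44.62, against 0.24 to 8.38 in the other 23. The day mean was thus 19.4 TPM on day 2, from 18 counts, and 0.393 TPM on day 4, also from 18 counts. Counts were therefore used as the main unit.

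**Figure D3:**
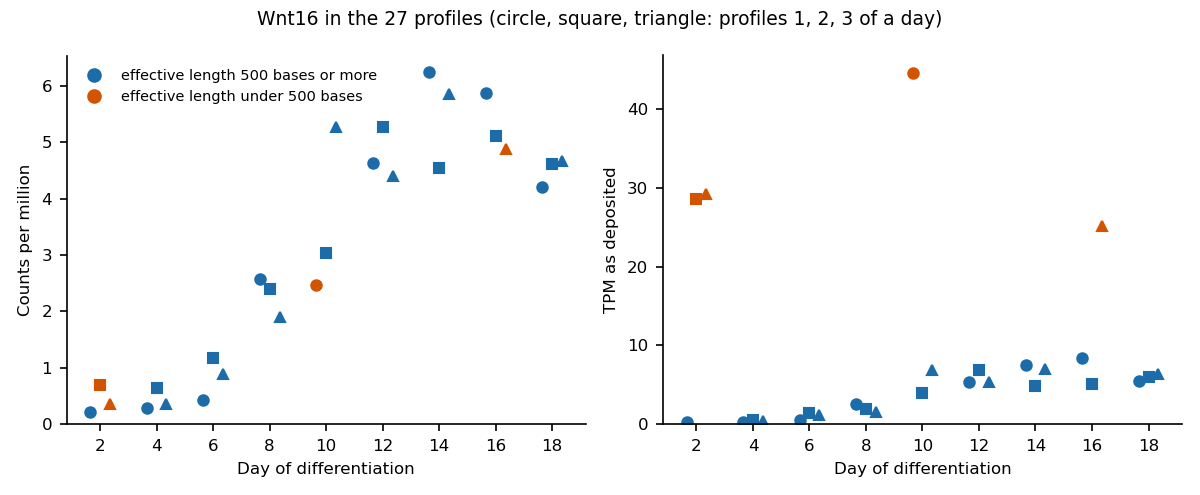
Wnt16 in each of the 27 profiles against day of differentiation, as CPM (left) and as deposited TPM (right), with profiles 1, 2 and 3 of a day drawn as circle, square and triangle. Orange marks the 4 profiles with an effective length under 500 bases, which lie at 25.18 TPM or more but among the other profiles in CPM.

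Wnt5a and Wnt5b are close paralogs, and both rose. Wnt5a was at 52.6, 64.8, 66.9, 77.7, 79.0, 81.1, 77.9, 84.6 and 71.8 CPM over the 9 days from day 2 to day 18. Days 2 to 6 lay below all later days, with the lowest value on day 2 and the highest on day 16. Its log2 change along the line was 0.46 ± 0.16 (edgeR, adjusted p = 0.0302, spline 0.00215). The call along the line was lost without day 2, where the log2 change was 0.27 (adjusted p = 0.184), and in TPM with limma (0.35, adjusted p = 0.205). It was also lost without day 4 (0.47, adjusted p = 0.0635), day 6 (0.46, adjusted p = 0.0543), day 14 (0.46, adjusted p = 0.0514) or day 16 (0.43, adjusted p = 0.0752), with a change of about the same size. The spline call was lost without day 2 and kept without each of the other days and in TPM. An antisense long noncoding RNA, Gm2670, shares 358 exonic bases with Wnt5a (chr14:29317936-29340633, plus strand) and held 533.4 counts against 27772 for Wnt5a, and reads of the pair may be divided between them.

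Wnt5b was at 2.03, 1.64, 2.20, 2.71, 3.07, 3.75, 3.90, 4.68 and 3.87 CPM over the same days. Its late values of 3.87 to 4.68 CPM (days 14 to 18) did not overlap the early ones of 1.64 to 2.20 CPM (days 2 to 6). The log2 change was 1.38 ± 0.26, a 2.60-fold rise (edgeR, adjusted p = 0.00138, spline 0.00306). The rise kept its call without any single day and in TPM with limma (1.37, adjusted p = 0.00189). Wnt5b spans chr6:119382549-119494336 on the minus strand.

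A ratio inside 1 library does not depend on scaling, so the paralogs were also compared as a ratio of counts. The ratio of Wnt5a to Wnt5b, which was not corrected for length and is read for its course alone, was 25.7, 39.4, 30.2, 28.5, 25.6, 21.6, 19.9, 18.0 and 18.5 from day 2 to day 18. The ratio fell by 0.92 on the log2 scale along the line from day 2 to day 18 (exact permutation test over all 362880 orders of the days, two-sided p = 0.00457, adjusted over 3 ratios 0.0137). Wnt5b thus gained relative to Wnt5a while both rose. The test treats the days as exchangeable, and the smallest p it could give was 5.51e-06.

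**Figure D4:**
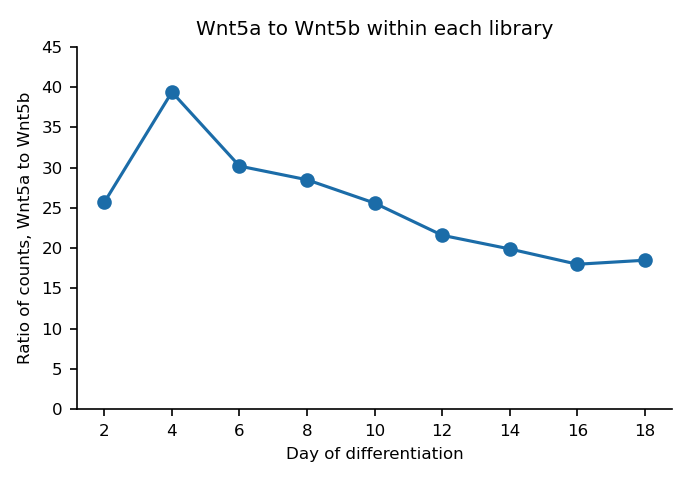
Ratio of Wnt5a to Wnt5b counts in the same library (vertical axis) against day of differentiation, 1 point per day. The ratio is highest on day 4 (39.4) and stands at 18.0 to 19.9 over days 14 to 18.

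Among the ligands that fell, Wnt2b, a ligand known to act through β-catenin, declined over most of the course. It was at 3.74, 5.67, 3.49, 2.84, 2.21, 1.46, 2.05, 1.24 and 1.70 CPM from day 2 to day 18. The peak was on day 4, and the early values of 3.49 to 5.67 CPM lay above the late ones of 1.24 to 2.05 CPM. The log2 change was -1.84 ± 0.37, a 3.57-fold fall along the line (edgeR, adjusted p = 0.0019, spline 0.00285). Day 4 was 4.58 times day 16 (95% interval 3.45 to 6.17, counting error only). Wnt2b spans chr3:104747723-104764627 on the minus strand.

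Wnt9a, a ligand known for its role in joint formation, fell by less and early. Its levels were 7.79, 7.88, 5.45, 4.43, 3.61, 4.75, 4.82, 4.12 and 4.22 CPM, so that days 2 and 4 stood above the rest and days 8 to 18 lay between 3.61 and 4.82 CPM. The log2 change was -0.90 ± 0.26 (edgeR, adjusted p = 0.0133, spline 0.00804). The call along the line was lost without day 2 (-0.77, adjusted p = 0.07), without day 4 (-0.74, adjusted p = 0.0534) and in TPM with limma (-0.79, adjusted p = 0.0633). The spline call was kept without any single day and lost in TPM. Wnt9a spans chr11:59120430-59147054 on the plus strand, and Wnt3a, 16175 bases away, had 0 counts.

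Wnt10b, a ligand known to favour osteoblast over adipocyte fate in mesenchymal progenitors, fell to the limit of detection. Its levels were 1.66, 0.346, 0.742, 0.542, 0.451, 0.102, 0, 0.0203 and 0.118 CPM, from 71, 15, 34, 17, 10, 6, 0, 1 and 5 counts. Days 2 to 10 lay above days 12 to 18 without overlap. The day 2 value (95% interval 1.30 to 2.09 CPM, counting error only) was 24.6 times the day 14 floor of 3 counts (0.0676 CPM), and 4.80 times day 4 (95% interval 2.73 to 9.03). Wnt10b passed the filter on low counts through the days on which it was higher, so its p-values are a description. At a stricter minimum count it was not tested, and without a filter its log2 change was -4.9 (edgeR, adjusted p = 0.00581). Its fitted change with the filter was -4.88 ± 1.16 on the log2 scale (edgeR, adjusted p = 0.00502, spline 0.00943), a value that depends on the days near 0. It was -4.50 without day 2 (edgeR, adjusted p = 0.039), -6.26 without day 18 (0.00397) and -6.38 without replicate 1 (0.00108), and all 5 counts of day 18 came from replicate 1. Wnt10b spans chr15:98602184-98608581 on the minus strand, 11706 bases from Wnt1, which had 1 count.

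Wnt4 and Wnt11, both known for roles in organ development, shared with Wnt10b a maximum on day 2. Wnt4 was at 1.66 CPM on day 2 and between 0.383 and 1.02 CPM on the other days, and its log2 change was -0.95 ± 0.61 (edgeR, adjusted p = 0.213, spline 0.139). Wnt11 was at 0.748, 0.276, 0.153, 0, 0, 0.288, 0.315, 0.365 and 0.165 CPM, with a log2 change of -0.81 ± 1.19 (edgeR, adjusted p = 0.593, spline 0.0707). Neither trend passed the test in the line or the spline. Both line fits changed sign without day 2, to 0.03 for Wnt4 and 0.90 for Wnt11. Day 2 exceeded day 4 2.57-fold for Wnt4 (95% interval 1.64 to 4.14) and 2.71-fold for Wnt11 (1.36 to 5.77), intervals that cover counting error only. The osteoblast transcription factor Sp7 was also highest on day 2, at 49.8 CPM against 7.51 CPM on day 4. Other listed genes peaked on day 2 as well, among them Wnt2, a ligand outside the 10 (7.44 against 2.33 CPM on day 4). Lef1 (4.21 against 0.537 CPM), Kdr (4.47 against 0.645 CPM) and Acan (5.54 against 1.17 CPM) were further cases. No other osteoblast marker listed was highest on day 2, and Col1a1 (4960 CPM) and Col1a2 (3220 CPM) were lowest then. The part of the day 2 library in these values was not tested. Wnt4 (chr4:136833404-136855641, plus strand) had fractional counts in all 27 profiles, so its reads were shared with another transcript. Wnt11 spans chr7:105983622-106003705 on the plus strand.

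Wnt6 and Wnt10a lie next to each other, 6196 bases apart on the plus strand of chromosome 1 (chr1:74818466-74831893 and chr1:74838090-74850753), and neither passed the filter. Wnt6 had 0, 0, 0, 2, 6, 3, 3, 3 and 8 counts from day 2 to day 18, and Wnt10a, a ligand known from tooth and hair development, had 3, 6, 22, 8, 3, 12, 5, 7 and 1. Wnt6 was thus first counted on day 8, and Wnt10a was highest on day 6, at 0.480 CPM. On day 10 Wnt6 stood at 0.27 CPM, from 6 counts, which was 3.91 times the day 4 floor of 3 counts (0.0691 CPM). This ratio leaves out the counting error of day 10, whose exact Poisson interval was 0.0993 to 0.589 CPM, so it is not a lower bound. The ratio of Wnt6 to Wnt10a, with 0.5 counts added to each, rose by 5.15 on the log2 scale (exact permutation test, two-sided p = 0.0213, adjusted 0.0319), but without day 18 the change was 3.89 (exact permutation p = 0.108). The ratio of the paralogs Wnt10a and Wnt10b changed by 4.10 (exact permutation test, p = 0.0904, adjusted 0.0904). Fitted without a filter, Wnt6 had a log2 change of 3.89 ± 1.93 (edgeR, adjusted p = 0.14, spline 0.0433) and Wnt10a of -1.49 ± 1.27 (edgeR, adjusted p = 0.398).

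The composition of the pool was then described by the share of each ligand in the summed CPM per kilobase of the 10. Wnt5a made up 68.7% ± 3.84 (SD over 9 days), from 61.8% on day 2 to 73.9% on day 8. Behind it the order turned over. On day 2 Wnt9a held 13.0%, Wnt10b 7.24%, Wnt2b 5.78%, Wnt5b 5.64% and Wnt16 1.77%. On day 18 Wnt16 held 15.6%, Wnt5b 8.43%, Wnt9a 5.56%, Wnt2b 2.06% and Wnt10b 0.404%. The share of Wnt16 was highest on day 14, at 17.0%. The sum over the 10 ligands was lowest on day 2, at 19.7 CPM per kilobase, and highest on day 16, at 28.9. Wnt2, a ligand outside the 10, is not part of this sum or of the shares. It stood at 4.82 CPM per kilobase on day 2, above Wnt9a at 2.56, and at 0.596 on day 18. The day 2 sum, shares and order thus hold for the 10 alone. Counted without regard to length, the mean share of Wnt5a was 81.9%, and that of Wnt16 on day 18 was 5.40%, so its share rests on the effective length.

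**Figure D5:**
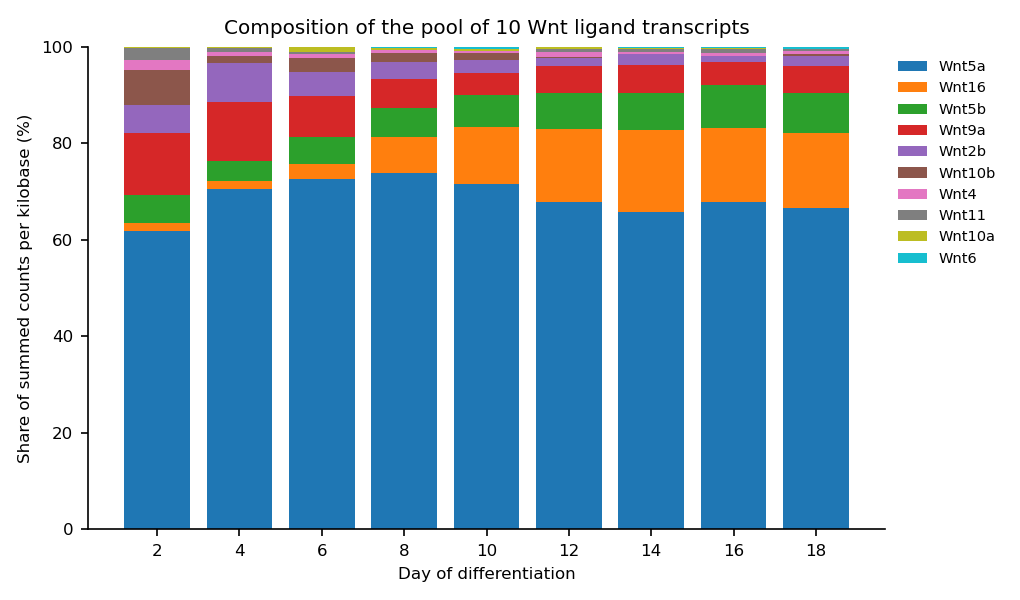
Share of each ligand in the summed counts per kilobase of the 10 Wnt ligands (vertical axis, percent) on each day of differentiation, as stacked bars. Wnt5a takes 61.8% to 73.9% on every day, and Wnt16 widens from 1.77% on day 2 to 15.6% on day 18 while Wnt9a, Wnt2b and Wnt10b narrow.

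For each called ligand, the 3 genes with the most similar course were listed by Pearson's r of log2 CPM over the 9 days, among genes with a mean of at least 10 CPM. These are descriptions over days that share their libraries and were chosen as the highest values among many genes. Nearest to Wnt16 were Trpm3 (r = 0.998), a cation channel, Angptl1 (0.998), a secreted angiopoietin-like protein, and Meox2 (0.997), a homeobox transcription factor. Wnt5b was nearest to Nenf (0.991), Lpar1 (0.986) and Cdc5l (0.983), and Wnt5a to Xist (0.979), Gbas (0.974) and Uap1l1 (0.974). Among the falling ligands, Wnt2b was nearest to Ctnnd1 (0.987), which encodes p120 catenin, Pitpnm2 (0.973) and Slc39a10 (0.972). Wnt9a was nearest to Arl8a (0.987), Smn1 (0.981) and Cdc42se1 (0.971), and Wnt10b to Snapc2 (0.980), Parp1 (0.954) and Snx27 (0.952).

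Of the other 9 Wnt ligands listed, Wnt2 alone passed the filter. At a mean of 1.24 CPM per kilobase it lay between Wnt5b and Wnt2b, and it fell from 7.44 CPM on day 2 to 0.743 CPM on day 14, with a log2 change of -2.80 ± 0.53 (edgeR, adjusted p = 0.0014). Wnt3a and Wnt9b had 0 counts, and Wnt1, Wnt3, Wnt7a, Wnt7b, Wnt8a and Wnt8b had 1 to 32 counts over the course, all below Wnt6 in mean CPM per kilobase.

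Of 9 genes that modify and secrete the ligands 2 rose, 2 fell and 5 were not called, with a median log2 change of -0.05. Of all tested genes 28.3% rose and 26.1% fell, so these shares were not above the background. Porcn, the acyltransferase for the serine shown above, rose from 3.18 CPM on day 2 to 14.6 CPM on day 18 (log2 change 2.72 ± 0.38, edgeR, adjusted p = 0.000237). Wls, the carrier, was at 110 CPM on day 2 and 144 to 161 CPM afterwards, and passed in the spline (edgeR, adjusted p = 0.0106) but not along the line (0.27 ± 0.15, adjusted p = 0.145). The cargo receptor Tmed10 rose (0.49 ± 0.09), whereas its relative Tmed5 (-1.82 ± 0.22) and the retromer subunit Vps35 (-0.26 ± 0.09) fell.

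Of the 15 receptors and co-receptors tested, 9 rose, 3 fell and 3 were not called along the line, with a median log2 change of 1.71, beside 28.3% rising and 26.1% falling among all tested genes. The spline called all 15, beside 59.1% of all tested genes. Fzd4 rose from 9.21 to 90.8 CPM between day 2 and day 18 (log2 change 4.41 ± 0.65, edgeR, adjusted p = 0.000332), and the co-receptors Lrp5 (1.71 ± 0.15) and Lrp6 (2.11 ± 0.26) rose with it. Fzd1, Fzd2, Fzd5, Fzd8 and Fzd9 rose too. Fzd9 was at 0.0234, 0 and 0.218 CPM on days 2, 4 and 6 and passed the filter through later days, so the receptor count is a description. The receptors known for signalling without β-catenin differed in direction. Ror1 rose (3.06 ± 0.69, edgeR, adjusted p = 0.00362), Ryk (-1.17 ± 0.14) and Ptk7 (-1.72 ± 0.12) fell, and Ror2, a receptor for Wnt5a, had a log2 change of -0.50 ± 0.22 (edgeR, adjusted p = 0.0722). The third gene that fell was Fzd6 (-2.10 ± 0.34).

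Among 10 feedback and target genes tested, 4 rose, 1 fell and 5 were not called along the line (median 1.41), so that 5 of 10 were called where 54.3% of all tested genes were. The spline called 7 of the 10, where it called 59.1% of all tested genes. Axin2, a general target of β-catenin signalling, was at 4.28 to 6.72 CPM throughout (log2 change 0.45 ± 0.18, edgeR, adjusted p = 0.0573). Nkd1 (4.97 ± 1.00), Apcdd1 (2.36 ± 0.40), Lgr5 (7.97 ± 1.24) and Dkk1 (5.56 ± 0.88) rose, and Lef1 (-2.62 ± 0.91), at 4.21 CPM on day 2 and at most 0.537 CPM later, fell. Dkk1 was at most at 0.117 CPM over days 2 to 6 and passed the filter through later days, so the count for this list is a description. Of the 7 secreted antagonists tested, Sfrp1, Sfrp2, Sfrp4, Frzb and Dkk3 rose, Wif1 fell and Dkk2 was not called along the line (median 2.23), beside 28.3% rising and 26.1% falling among all tested genes. The spline called all 7, beside 59.1% of all tested genes. Dkk2 was at 25.7 CPM on day 2, 81.0 on day 6 and 45.6 on day 18 (edgeR spline, adjusted p = 0.000208). Wif1 was at 0 to 0.189 CPM from day 12 on and passed the filter through earlier days, so the antagonist count is a description. Sfrp2, which binds Wnt ligands outside the cell, went from 23.1 CPM on day 2 to 5460 CPM on day 18 (log2 change 9.83 ± 1.71, edgeR, adjusted p = 0.000842).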

How the data were processed

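RNA sequencing profiles of mouse calvarial cells (27 profiles, 3 lanes on each of 9 days) were used. The authors amplified complementary DNA, aligned reads to the NCBIM37 transcriptome with Bowtie 0.12.9 and quantified genes with RSEM, version 1.2.8 per the processing notes. The deposited estimated counts per gene came from RSEM, were not normalized, and share reads that match several transcripts. The deposited TPM values divide these counts by an effective length and are scaled within each profile, so short estimated lengths raise them. Effective lengths were taken from the deposited files as well. Symbols matched 37205 of 37991 identifiers in the GENCODE annotation of NCBIM37. Symbols with more than 1 identifier were taken from the identifier with most counts.

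Counts were summed over lanes, rounded, scaled by upper-quartile factors and fitted on day with edgeR 4.0.16 in R 4.3.3 (filterByExpr, minimum count 10, quasi-likelihood test, Benjamini-Hochberg adjustment over 15659 genes, threshold 0.05), as a line and as a natural spline with 3 degrees of freedom. The scripts were tested on simulated counts. Levels between genes were divided by the median effective length. Exact permutation tests and 95% exact Poisson and binomial intervals used scipy 1.17.1, and intervals and floors cover counting error only. Alternatives were TMM factors, DESeq2 1.42.0, no filter, a minimum count of 30, limma 3.58.1 on log2(TPM + 0.1), the 27 profiles without and with a replicate block, days 2 to 6 against days 14 to 18, a spline with 2 degrees of freedom, and leaving out each replicate or day. The named genes were the 10 members, the 3 genes most like each called member, and lists of pathway genes and cell type markers. Sp7 and individual list genes were picked for mention after their values were seen. The members and lists were chosen with earlier results of these data known.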

Additional observations from a re-analysis of the deposited data

How the results depend on the processing

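Of 307 values recomputed under alternatives, 283 kept their direction and call or moved by less than their spread, 13 lost and 5 gained their call, 4 moved and 2 reversed. In TPM with limma 1 ligand rose in place of 3, since Wnt5a and Wnt16 lost their calls. With 1 replicate or day left out, the line gave -1.18 to 0.03 for Wnt4 and -1.30 to 0.90 for Wnt11, with neither called and both reversed without day 2. The spline called Wnt4 without replicate 2 and Wnt11 without day 6, by DESeq2 and in TPM with limma. Leaving out single days gave 2 to 3 rising and 2 to 3 falling ligands. Leaving out a replicate or a day gave log2 changes of 2.51 to 7.09 for the ratio of Wnt10a to Wnt10b, which passed without replicate 1 (4.29, exact permutation p = 0.00959) and without day 18 (7.09, exact permutation p = 0.00357), and 3.89 to 6.29 for that of Wnt6 to Wnt10a, which missed without replicate 3 (3.90, exact permutation p = 0.058) and without day 18. From TPM these ratios changed by 3.15 (exact permutation p = 0.0219) and 1.76 (exact permutation p = 0.0805). The mean share of Wnt5a in the pool was 64.2% from TPM and 81.9% from counts without length, and the day 18 share of Wnt16 was 5.40% without length. The cause of these shifts was not tested. At a minimum count of 30 Wnt10b was not tested.

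Deviations from the day means had a mean correlation of 0.0055 between same-numbered profiles (from -0.068 to 0.0578), so no pairing by number was seen. As 27 separate samples the line called 11534 genes, and with the replicate block 11413, against 8510, with 4 falling ligands, Wnt4 among them. The block called 8 ligands in the spline and 13321 genes. The profiles of a day share a library, so these fits count the scatter of the same days repeatedly. The SE of Wnt5a along the line was 0.09 with 27 separate samples, against 0.16 in the main fit. The smaller p-values of these fits thus rest on no added libraries. With 1 library per day, depth limits Wnt6, Wnt10a, Wnt11 and the late days of Wnt10b.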
